A study of Mus musculus with 19 samples.

Results

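TRBV14 is the gene segment that encodes the Vβ13 region of the mouse T cell receptor beta chain. It was 1 of 22 TRBV segments listed in 19 libraries of sorted CD4+ T cells, and its members are all entries that the provider assigned to it. There were 97636 such entries of 2146950 in all, 96903 of them in lymph nodes and 733 in hearts, and they held 13.5% of all reads and 78496 distinct TRBV14 CDR3 amino acid sequences. An entry is a CDR3, a TRBV and a TRBJ segment with a read count. The segment was chosen by the read counts of the heart libraries, in each of which it carries the most abundant entry, so that its levels in hearts and the ranks of its heart entries are described here without a test.

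The study read TRB transcripts of CD4+ TCRβ+ cells, sorted by FACS from wild-type Balb/c mice 7 days after surgery or immunization. The labels name no other allele, and give no age. Hearts after myocardial infarction (MI, n = 3) came from mice with the left anterior descending coronary artery tied off, and 5000 sorted cells went into each library. Every node library came from 500000 cells. The mediastinal nodes, which drain the heart, came from mice with MI (n = 3) or from sham-operated mice whose chest was opened without ligation (n = 4). All operated mice received buprenorphine against pain. Axillary nodes were taken after subcutaneous injection of 100 µg of porcine cardiac myosin (n = 2) or of 1 mg of mouse heart protein extract (n = 3), both in Titermax Gold adjuvant, or of 200 µl of the adjuvant alone (n = 4). The labels name 2 adjuvant volumes for immunized mice without saying which mouse received which, and they do not say whether a library came from 1 animal or whether a heart and an MI node of the same number share an animal. P-values therefore measure the spread between these libraries. Node libraries held 7534295 to 9235800 reads and heart libraries 2426715 to 5126910. Only TRB transcripts were amplified, so that the labelled cell type cannot be checked against marker genes.

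A T cell receptor beta chain is built in the thymus by joining a V, a D and a J segment, and the joint, with bases removed and added at random, encodes the CDR3 loop that touches the antigen peptide. The loops encoded by the V segment itself mostly touch the MHC molecule. CD4+ T cells that recognise a peptide divide in the draining lymph node and can then enter the inflamed tissue, where the descendants of 1 cell carry the same CDR3.

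The sequences that lead the TRBV14 reads of each infarcted heart are printed first, since the description turns on them. They are amino acid sequences as the deposited tables give them, without the conserved first cysteine and last phenylalanine, and each is named by its heart, its rank among the TRBV14 entries of that heart, its TRBJ segment and its reads.
Heart 1, rank 1, TRBJ1-1, 68148 reads: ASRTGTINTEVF
Heart 1, rank 2, TRBJ2-1, 49436 reads: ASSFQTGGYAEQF
Heart 1, rank 3, TRBJ2-1, 44610 reads: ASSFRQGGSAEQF
Heart 1, rank 4, TRBJ2-5, 43683 reads: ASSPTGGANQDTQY
Heart 1, rank 5, TRBJ1-4, 38125 reads: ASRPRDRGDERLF
Heart 2, rank 1, TRBJ1-4, 145259 reads: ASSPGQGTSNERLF
Heart 2, rank 2, TRBJ2-1, 113196 reads: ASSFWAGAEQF
Heart 2, rank 3, TRBJ1-4, 104532 reads: AKPGHNERLF
Heart 2, rank 4, TRBJ1-1, 87767 reads: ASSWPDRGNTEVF
Heart 2, rank 5, TRBJ1-4, 59975 reads: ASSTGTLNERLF
Heart 3, rank 1, TRBJ1-1, 171644 reads: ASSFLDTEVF
Heart 3, rank 2, TRBJ1-2, 145158 reads: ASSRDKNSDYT
Heart 3, rank 3, TRBJ2-2, 65423 reads: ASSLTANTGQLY
Heart 3, rank 4, TRBJ2-3, 56504 reads: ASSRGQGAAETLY
Heart 3, rank 5, TRBJ2-5, 49477 reads: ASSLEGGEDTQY

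All 15 stood among the 10 most abundant entries of their own library. They were 10 to 14 residues long and used 7 TRBJ segments, TRBJ1-4 in 4 clones and TRBJ1-1 and TRBJ2-1 in 3 each. None of the 15 was listed with another TRBV segment in its library. ASS opened 12 of the 15, and ASSF opened 4, among them those of ranks 2 and 3 in heart 1, which share their TRBJ segment and their length. A pair of adjacent glycines, looked for after the sequences had been seen, stood in 4 of them, 3 in heart 1 and 1 in heart 3. Entries with that pair held 50.7%, 13.5% and 19.5% of the TRBV14 reads of hearts 1, 2 and 3, against 15.6% to 19.1% in the 16 nodes. Heart 1 was thus the only heart far above the nodes, and heart 2 lay below them.

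TRBV14 made up a similar share of reads in every node group. It held 12.3%, 19.7% and 16.6% of the reads of hearts 1, 2 and 3, with a mean of 16.2% ± 3.71 (SD, n = 3). Its share was 13.3%, 12.6% and 13.6% in the MI nodes (13.2% ± 0.491, n = 3) and 13.2%, 14.5%, 13.8% and 13.6% in the sham nodes (13.8% ± 0.559, n = 4). Hearts 2 and 3 stood above all 16 nodes, and heart 1 below every MI and sham node, so that hearts overlapped the MI nodes in range. Between hearts and MI nodes the shares of 36.4% of the 22 segments did not overlap.

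Among axillary nodes the TRBV14 share was 12.5% and 12.4% after myosin, 14.1%, 12.6% and 13.5% after heart extract (13.4% ± 0.736, n = 3), and 13.83%, 11.53%, 14.01% and 12.13% after adjuvant alone (12.9% ± 1.24, n = 4). In falling order of the means, the groups ran from hearts over sham, heart extract, MI and adjuvant nodes to myosin nodes. The ranges of every pair of neighbours in that order overlapped, and each gap between neighbours was smaller than the larger of their SDs. By reads TRBV14 ranked 3 of 22 in each of the 16 nodes, 3 in heart 1 and 2 in hearts 2 and 3. The 95% Wilson interval was widest in heart 1, from 12.26% to 12.34%. Intervals and detection floors here cover counting error only, because no molecular identifiers are mentioned and PCR copies are not independent molecules.

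**Figure D1:**
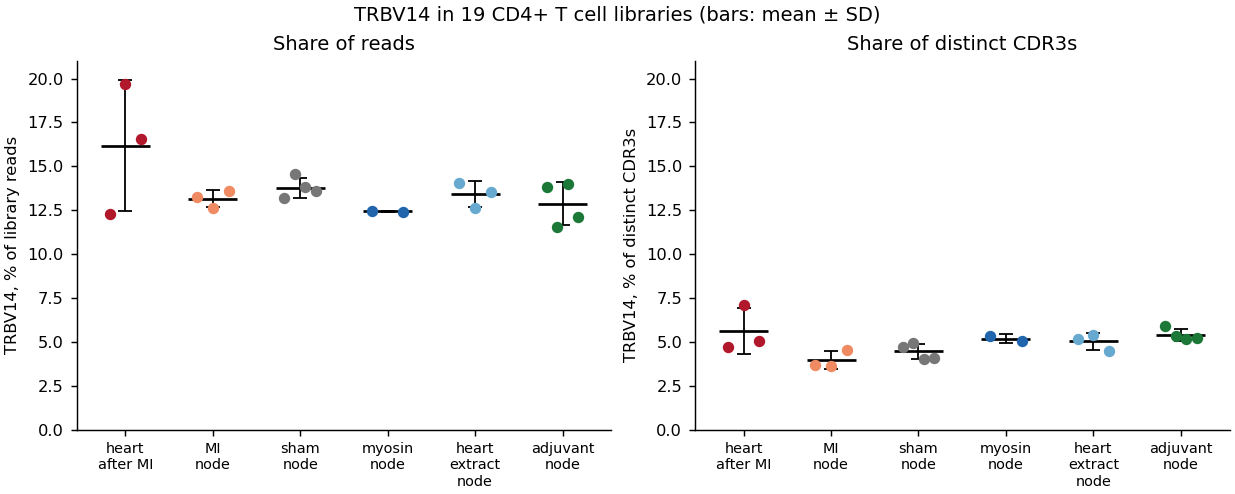
TRBV14 as a percentage of reads (left) and of distinct CDR3s with their TRBV segment (right) in each library, with a point per library and bars for the mean ± SD of its group. The node groups lie between 11.5% and 14.5% of reads, the 3 hearts between 12.3% and 19.7%.

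MI and sham nodes were compared to ask whether infarction changes the use of TRBV14 in the heart-draining node, and no change passed. On the log2 scale MI over sham nodes gave -0.07 (SE 0.0626, edgeR adjusted p 0.976), and edgeR called 0% of the 22 segments there. DESeq2 called none either, and no segment had an unadjusted p under 0.05. Immunized and adjuvant nodes were compared to ask whether a heart antigen changes it in the axillary node. There the log2 fold change of TRBV14 was -0.05 for myosin over adjuvant (SE 0.0711, edgeR adjusted p 0.974), 0.06 for heart extract over adjuvant (SE 0.0625, edgeR adjusted p 0.641) and 0.02 for both antigens over adjuvant (SE 0.0550, edgeR adjusted p 0.911). TRBV14 passed in none of these 3, with edgeR calling 0%, 9.09% and 9.09% of segments in that order, and its unadjusted p was 0.496, 0.366 and 0.787. The MI effect and the antigen effect on TRBV14 differed by -0.08 on the log2 scale (SE 0.0833, edgeR adjusted p 0.858).

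The control nodes differed more in general, but TRBV14 stayed short of the threshold there as well. In this comparison, which reuses the controls of the others, sham mediastinal nodes exceeded adjuvant axillary nodes by 0.10 on the log2 scale in TRBV14 reads (SE 0.0579, edgeR adjusted p 0.153), while 45.5% of the 22 segments passed. Counted as distinct CDR3s in place of reads, the sign turned and the difference passed, at -0.28 on the log2 scale (edgeR adjusted p 0.0129). In that count 27.3% of the 22 segments passed. TRBV14 held 4.45% ± 0.444 of the distinct CDR3s of sham nodes and 5.41% ± 0.349 of those of adjuvant nodes (SD, n = 4 each). Node site, surgery and adjuvant cannot be told apart in this comparison.

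TRBV14 stood out among the segments in its mean number of reads per distinct CDR3. Over the 16 nodes it held 13.2% ± 0.823 of reads but 4.79% ± 0.661 of distinct CDR3s (SD), so that its share of reads was 2.81 times its share of CDR3s (2.17 to 3.61). This ratio was the highest of the 22 segments, before 2.02 for TRBV19, 1.46 for TRBV16 and 1.40 for TRBV5, and TRBV13-2 had 0.347. TRBV14 had the most reads per distinct CDR3 of all segments in each of the 19 libraries, with 2017, 2717 and 3193 in hearts 1, 2 and 3, and 101 to 515 in the nodes. All segments other than TRBV14 together had 708, 844 and 859 reads per CDR3 in the hearts and 26.4 to 155 in the nodes. The median TRBV14 entry, though, had 3 to 64 reads in the nodes, against 11 to 25 for the other segments together. Over the 16 nodes the middle of these values was 4 for TRBV14 and 19.5 for the others. Among nodes the median TRBV14 entry exceeded that of the others in MI nodes 1 and 2 and sham node 3 alone.

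TRBV14 entries of intermediate size were scarce in most nodes. TRBV14 supplied 6.92% ± 2.37 of node entries with 2 to 9 reads, 1.03% ± 0.754 of those with 10 to 99, 9.82% ± 6.87 of those with 100 to 999 and 37.1% ± 8.54 of those with 1000 to 9999 (SD, n = 16). Of the 11 node entries with 10000 reads or more, 8 carried TRBV14. MI nodes 1 and 2 and sham node 3 differed from the rest. There TRBV14 supplied 2.36%, 2.75% and 2.03% of entries with 10 to 99 reads, against 2.49%, 2.19% and 3.43% of those with 2 to 9. In the hearts the scarce sizes lay higher, with TRBV14 in 12 of 1037 entries of 1000 to 9999 reads and in 41 of 321 entries of 10000 reads or more.

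**Figure D2:**
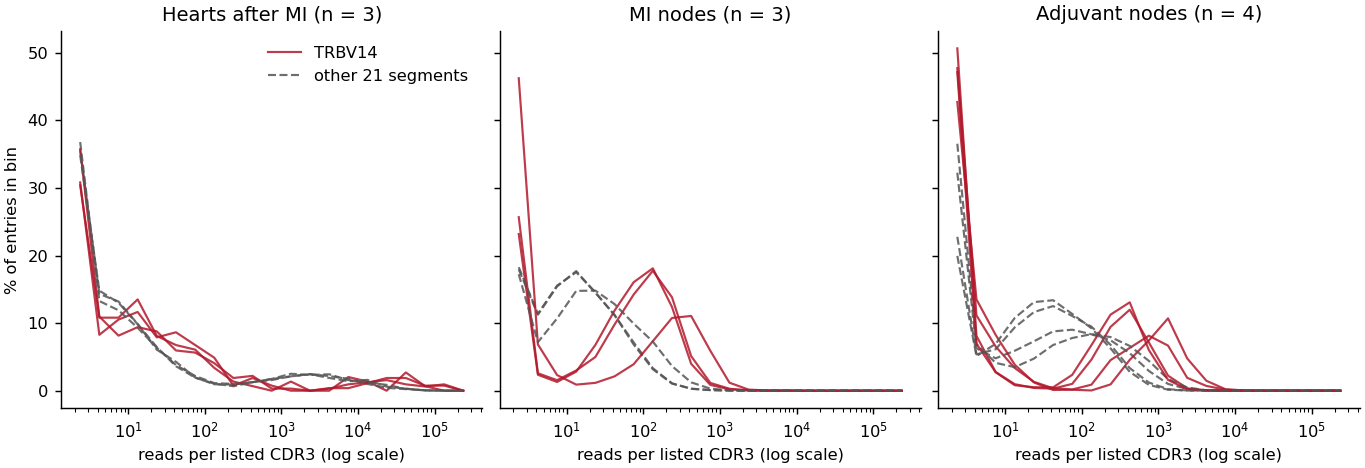
Percentage of entries by reads per listed CDR3 (log scale) for TRBV14 (solid) and for the other 21 segments together (dashed), one line per library, in hearts after MI, MI nodes and adjuvant nodes. In nodes the second peak of TRBV14 lies to the right of the broad peak of the others.

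A size that does not depend on the rare entries is the weighted median, the entry size at which 50% of a segment's reads lie in entries at least as large. For TRBV14 it was 44610, 87767 and 56504 reads in hearts 1, 2 and 3, ranking first, first and second among the segments listed, after TRBV16 with 62553 in heart 3. In nodes it ran from 197 to 2223 and ranked first of 22 in 15 of the 16. The exception was MI node 3, where TRBV12-2 had 564 and TRBV14 had 493. The weighted median of TRBV14 was 5.01, 7.90 and 5.30 times that of TRBV5 in the hearts, against 2.33 to 3.59 times in the nodes, without overlap. Of 18 segments with reads in all libraries, 22.2% had ratios to TRBV5 that did not overlap between hearts and nodes. Against TRBV19 the ratios were 1.65 to 2.65 in the hearts and 1.24 to 2.29 in the nodes, and they overlapped. In each heart 3 or 4 TRBV14 entries decide this median, so that its precision there is low.

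The ratio to TRBV19 also differed between mediastinal and axillary nodes, which differ in surgery and adjuvant as well, so that these and the site cannot be told apart. The weighted median of TRBV14 was 1.77 to 2.29 times that of TRBV19 in the 7 mediastinal nodes and 1.24 to 1.54 times in the 9 axillary nodes. The 2 kinds of node did not overlap, as was true of 33.3% of the 21 segments set against TRBV19. Against TRBV5, TRBV14 gave 2.46 to 3.59 in mediastinal and 2.33 to 3.25 in axillary nodes, which overlapped. In these reads, more cells of a clone, more TRB RNA per cell and more PCR copies of a segment cannot be told apart.

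TRBV14 led the ranked entries of nodes as well as hearts. The most abundant entry carried TRBV14 in 3 of 3 hearts and in 11 of 16 nodes. TRBV14 supplied 5, 5 and 6 of the 10 most abundant entries of hearts 1, 2 and 3, and 1 to 9 of those of the nodes (median 4.5). Further down the list, TRBV14 entries were fewer in the hearts. TRBV14 supplied 9, 16 and 16 of their 100 most abundant entries, against 31, 30 and 41 in MI nodes and 34, 45, 44 and 59 in sham nodes. Hearts and MI nodes did not overlap in this number, as was true of 22.7% of the segments. Hearts 1, 2 and 3 listed only 12, 22 and 19 TRBV14 entries with at least 1000 reads, which bounds the number there. Sorted cells and tissue cannot be told apart in it. For TRBV19, the segment with the most node reads, the hearts had 40, 43 and 46 and the MI nodes 34, 27 and 30.

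**Figure D3:**
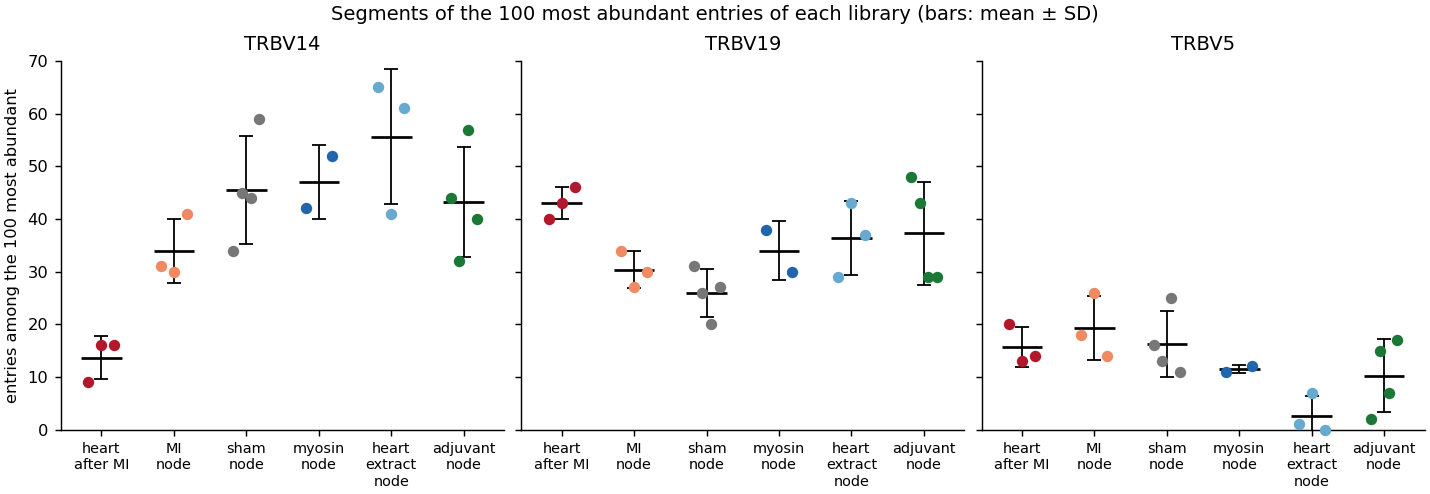
Number of entries with TRBV14, TRBV19 and TRBV5 among the 100 most abundant entries of each library, with a point per library and bars for the group mean ± SD. Hearts hold 9 to 16 TRBV14 entries and all nodes 30 to 65.

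Rank by reads compares segments whose entries differ in size. In an alternative chosen after the data had been seen, each entry's reads were divided by the weighted median of its segment in MI nodes relative to TRBV5, which is 2.82 for TRBV14. This divisor is the largest of the 22, so that the scale can only lower the rank of TRBV14 entries, and their fall follows in part from how it was built. On that scale 0 of 3 hearts and 0 of 16 nodes had TRBV14 in their most abundant entry. The best TRBV14 entry then ranked 26 in heart 1, 9 in heart 2 and 9 in heart 3.

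A few clones held most TRBV14 reads of a heart. The most abundant one held 22.8% of the TRBV14 reads of heart 1, 16.8% of heart 2 and 20.2% of heart 3, and the 5 printed for each heart held 81.8%, 58.9% and 57.5%. It took 3, 4 and 4 entries to reach 50% of TRBV14 reads in hearts 1, 2 and 3, against 159 to 1537 in the nodes. The 10 most abundant held 98.0%, 80.9% and 81.2% in the hearts, 2.52%, 2.55% and 3.07% in the MI nodes, and 1.73% to 7.64% over all nodes. Hearts differ from nodes in sorted cells as well as in tissue, and the 2 cannot be told apart here.

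**Figure D4:**
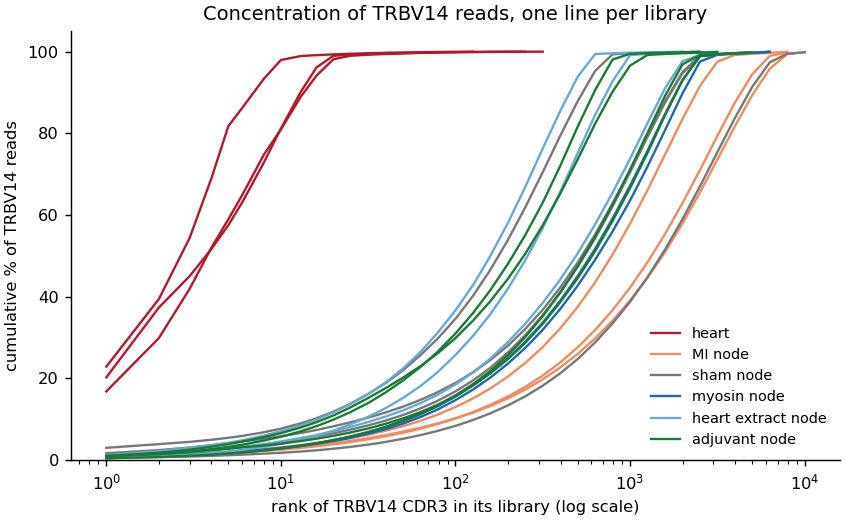
Cumulative percentage of TRBV14 reads against the rank of the TRBV14 CDR3 in its library (log scale), one line per library and coloured by group. The heart lines reach 50% at 3 or 4 CDR3s and the node lines at 159 to 1537.

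Most TRBV14 entries of a heart were small neighbours of larger ones. Of 148, 319 and 266 TRBV14 entries in hearts 1, 2 and 3, 135, 285 and 241 differed by a single residue from a larger entry with the same TRBJ, and together they held 2.04%, 1.29% and 1.10% of TRBV14 reads. Their median size was 0.0344%, 0.0352% and 0.0365% of the larger entry. Entries with at least 1000 reads numbered 12, 22 and 19 and held 98.8%, 98.8% and 98.9% of TRBV14 reads. Whether the small neighbours are copying errors was not tested.

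The leading heart clones were found in few nodes. Of the 15, 9 were listed in no node and 5 in an MI node. The same counts for leading heart entries of other segments are not given here, so that these describe the TRBV14 clones without a background. None of the 5 of heart 1 was listed in any of the 16 nodes. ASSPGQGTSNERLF led heart 2 with 3.30% of all its reads (95% Wilson interval 3.28% to 3.32%). Among nodes it was listed in MI node 2 alone, with 1086 reads. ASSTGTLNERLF of heart 2 had 6 reads in sham node 1, and the other 3 of heart 2 were in no node. An unlisted CDR3 had at most 1 read or had been removed upstream, since the lowest count listed was 2.

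The clones of heart 3 were listed in more nodes. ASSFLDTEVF, at 3.35% of all reads of heart 3 (interval 3.33% to 3.36%), led the TRBV14 clones of MI node 3 as well, with 7037 reads there and 2 reads each in myosin node 2 and adjuvant node 2. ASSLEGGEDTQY had 3108 reads in MI node 3 and was in no other node. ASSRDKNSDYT had 75 reads in MI node 2, 1358 in sham node 2 and 321 in myosin node 2. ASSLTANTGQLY had 286, 110 and 1580 reads in the 3 MI nodes, 2 and 280 in sham nodes 2 and 3, and 281 in adjuvant node 4. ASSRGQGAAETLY was in none. Heart clones were thus listed in sham, myosin and adjuvant nodes as well as in MI nodes.

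Summed over all TRBV14 entries, 6.49%, 50.1% and 76.6% of the TRBV14 reads of hearts 1, 2 and 3 belonged to entries listed in at least 1 node. For heart 2, MI node 2 listed the largest part with 27.7%, before sham node 1 with 17.0% and sham node 3 with 14.5%. For heart 3, MI node 3 listed 41.0%, close to 41.2% in sham node 2 and below 44.2% in myosin node 2. For heart 1 no node listed more than 4.45%, reached in MI nodes 1 and 2 and in heart extract node 1 through 1 entry each. The entries of heart 3 took up 0.142% of all reads in MI node 3, against 0.0663% in sham node 2 and 0.0321% in myosin node 2. They took up more in myosin node 1, at 0.145%, through 5 entries that held 0.0361% of the TRBV14 reads of heart 3. The nodes listed from 2043 distinct TRBV14 CDR3s (heart extract node 3) to 10988 (sham node 3), with 10604 in MI node 2. None of these values is corrected for that number.

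Hearts shared almost no TRBV14 sequence. Only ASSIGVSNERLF with TRBJ1-4 was listed in 2 hearts, with 66 reads in heart 1, 8 in heart 3 and none in heart 2 or in any node. Of the other segments, TRBV16 had 7 entries listed in 2 or more hearts, TRBV19 had 6 and TRBV13-1 had 2. The rest had 0 or 1 each, so that low sharing between hearts was not particular to TRBV14. Across nodes TRBV14 was among the less shared segments. The node entries of TRBV14 held 78008 different combinations of CDR3 and TRBJ. Of these, 86.4% were in 1 node and 0.224% in 8 or more, rank 15 of 22, against 1.51% for TRBV5 and 0.588% for TRBV19. Entries of all sizes count here, and sharing of the larger ones alone was not examined. No TRBV14 CDR3 was in all 16 nodes. The 4 most widely listed, each in 13 nodes and in no heart, are shown because they are the shared counterpart of the heart clones.
Node-shared, TRBJ1-1: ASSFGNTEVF
Node-shared, TRBJ2-7: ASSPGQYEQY
Node-shared, TRBJ2-4, first: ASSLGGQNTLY
Node-shared, TRBJ2-4, second: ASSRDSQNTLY

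The reads of these 4 varied widely, from 2 in MI node 3 to 3228 in sham node 1 for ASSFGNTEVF, and from 286 to 3225 among the nodes that listed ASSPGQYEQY.

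The most abundant TRBV14 clone was a different one in each of the 16 nodes, and 6 of these 16 were listed in no other node. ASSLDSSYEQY in sham node 4 had the highest count, 34179 reads or 0.399% of that library (95% Wilson interval 0.395% to 0.403%), and 5 other nodes listed it with at most 673 reads. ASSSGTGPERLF followed with 20292 reads in sham node 2. In MI nodes 1 and 2 the leading TRBV14 clones were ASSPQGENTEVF with 8567 reads and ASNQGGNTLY with 6172, both listed in no other node and in no heart. The leading clones of the myosin nodes were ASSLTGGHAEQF with 10992 reads, which 1 heart also listed, and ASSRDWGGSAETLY with 5021. Those of the heart extract nodes had 4801 to 11865 reads and those of the adjuvant nodes 3900 to 10271. These ranges of counts overlapped, and their difference was not tested.

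TRBV14 joined some TRBJ segments more often than the other TRBV segments did. Over the 16 nodes, TRBJ2-5 made up 12.7% ± 1.43 of TRBV14 reads and 9.32% ± 0.514 of the reads of the other segments (SD). TRBJ2-1 made up 12.4% ± 0.974 of TRBV14 reads and 9.22% ± 0.637 of the others. Both were higher with TRBV14 in 16 of 16 nodes, with an exact two-sided sign-flip p of 3.05e-05, the smallest that 16 libraries allow (adjusted p 8.39e-05 over 11 TRBJ segments). TRBJ2-7, at 13.4% and 12.1%, was higher in 12 of 16 (adjusted p 0.00256, exact sign-flip test).

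Other TRBJ segments were joined to TRBV14 less often. TRBJ1-2 made up 3.02% ± 0.439 of TRBV14 reads and 5.01% ± 0.294 of the others, and TRBJ1-3 6.95% ± 0.705 and 8.65% ± 0.476, both lower in 16 of 16 nodes (adjusted p 8.39e-05 each, exact sign-flip test). TRBJ1-4, TRBJ2-2 and TRBJ2-4 were lower in 15 of 16 and TRBJ1-1 in 13 of 16 (adjusted p 2.80e-04, 1.34e-04, 3.36e-04 and 0.0103, exact sign-flip tests). TRBJ1-5 and TRBJ2-3 did not pass, at 2.79% and 11.6% of TRBV14 reads against 2.39% and 11.1% (adjusted p 0.0563 and 0.155, exact sign-flip tests). With distinct CDR3s in place of reads, TRBJ1-1 was 0.107 points higher with TRBV14 and did not pass (adjusted p 0.750), nor did TRBJ1-4 (adjusted p 0.176, exact sign-flip tests). In all, 9 of 11 passed, 3 higher and 6 lower with TRBV14. Whether as many would pass for another TRBV segment set against the rest was not tested. The count therefore does not show whether this is particular to TRBV14.

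In the hearts the TRBJ profile of TRBV14 followed the few leading clones. TRBJ2-1 held 31.9%, 30.5% and 4.71% of TRBV14 reads in hearts 1, 2 and 3, and TRBJ1-4 held 17.9%, 41.4% and 5.06%. TRBJ1-1 held 23.7%, 15.0% and 23.4%, against 10.6% to 18.2% in the nodes. TRBJ1-2 was listed with TRBV14 in heart 3 alone, where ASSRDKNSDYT brought it to 20.9%, against 3.02% in the mean of the nodes. TRBJ1-5 was listed with TRBV14 in no heart, and TRBJ1-3, TRBJ2-2 and TRBJ2-7 were not listed with it in heart 1. The 3 hearts thus shared no TRBJ profile.

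**Figure D5:**
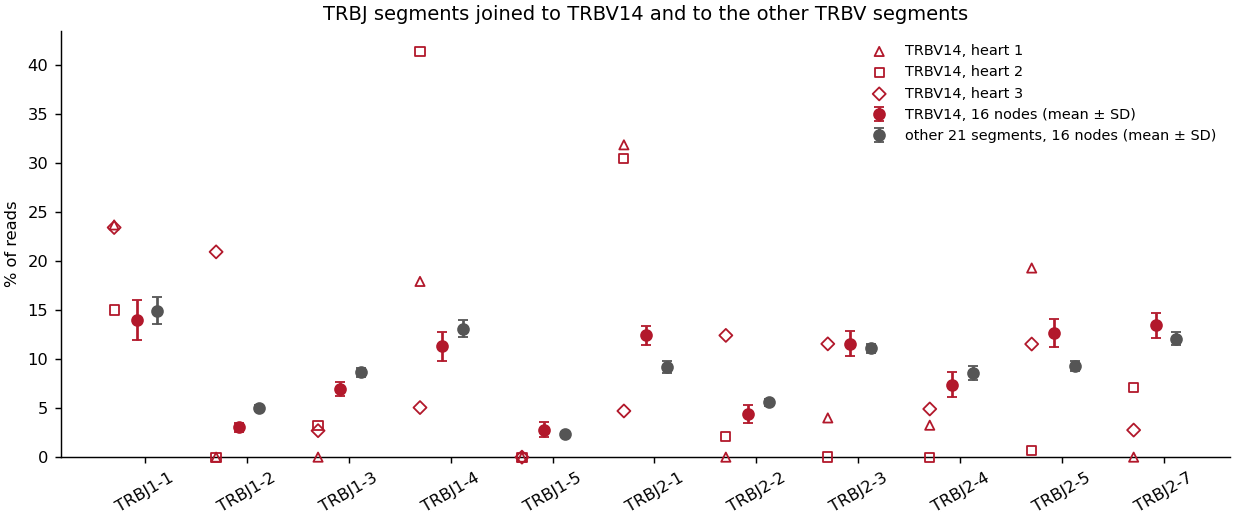
Percentage of reads that carry each TRBJ segment, for TRBV14 in each heart (open symbols), TRBV14 in the 16 nodes (filled red, mean ± SD) and the other 21 segments in the 16 nodes (grey, mean ± SD). Node values of TRBV14 lie above the others at TRBJ2-1 and TRBJ2-5 and below them at TRBJ1-2 and TRBJ1-3, while the hearts scatter from 0% to 41.4%.

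Between MI and sham nodes none of the 11 TRBV14-TRBJ pairs passed, nor did any of the 241 TRBV-TRBJ pairs tested (0%, edgeR). Before adjustment 1 of the 11 and 5 of the 241 had a p under 0.05, and DESeq2 found 0 pairs. The 3 smallest p belonged to TRBV14-TRBJ2-3 (log2 fold change -0.21, SE 0.0964), TRBV14-TRBJ2-1 (-0.20, SE 0.104) and TRBV14-TRBJ1-3 (0.18, SE 0.108), each with an edgeR adjusted p of 0.992. Between antigen and adjuvant nodes 0 of the 11 and 0% of the 241 passed by edgeR as well, 1 and 21 had a p under 0.05 before adjustment, and DESeq2 found 0. TRBV14-TRBJ2-3 had the smallest p there (log2 fold change 0.21, SE 0.0846, edgeR adjusted p 0.390). TRBV14-TRBJ2-5 followed with 0.17 and TRBV14-TRBJ2-2 with 0.22 (edgeR adjusted p 0.506 each).

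Sham mediastinal and adjuvant axillary nodes differed in 4 of the 11 TRBV14-TRBJ pairs, all higher in sham nodes, against 28.6% of the 241 pairs in either direction and 16.6% higher. TRBV14-TRBJ2-2 made up 0.667%, 0.882%, 0.789% and 0.533% of all reads in sham nodes, against 0.466%, 0.450%, 0.470% and 0.395% in adjuvant nodes. Every sham node lay above every adjuvant node, as was true of 17% of the 241 pairs. Its log2 fold change was 0.69 (SE 0.126, edgeR adjusted p 0.00307).

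TRBV14-TRBJ2-3 held 1.57% to 1.87% of reads in sham nodes and 1.21% to 1.55% in adjuvant nodes (log2 fold change 0.36, edgeR adjusted p 0.00784). TRBV14-TRBJ2-5 held 1.67% to 2.15% and 1.42% to 1.54% (0.30, edgeR adjusted p 0.0273), and TRBV14-TRBJ2-4 1.03% to 1.40% and 0.613% to 1.00% (0.46, edgeR adjusted p 0.0359). None of these 3 pairs overlapped between the groups either, and no other TRBV14 pair was free of overlap, against 27% of the 241 pairs in either direction. The median log2 fold change was -0.01 over the 11 TRBV14 pairs and 0.14 over all 241. Within the reads of the other segments, TRBJ2-2 made up 5.95% to 6.39% in sham nodes and 5.16% to 5.35% in adjuvant nodes. TRBJ2-4 and TRBJ2-5 were also higher in sham nodes there, without overlap. TRBJ2-3 overlapped there, at 10.7% to 11.9% in sham and 10.8% to 11.4% in adjuvant nodes. Whether the TRBV14 pairs differ beyond the TRBJ use of the other segments was not tested.

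The calls of TRBV14-TRBJ2-4 and TRBV14-TRBJ2-5 depended on the setting, and passed in 6 and 8 of 14 alternatives. Under TMM factors 1 TRBV14 pair was called higher in sham nodes, TRBV14-TRBJ2-2, and 1 lower, against 24.1% of the 241 pairs called (median of all pairs 0.01). By DESeq2 2 were higher, TRBV14-TRBJ2-2 and TRBV14-TRBJ2-3, and 1 lower, against 31.5% of pairs. From distinct CDR3s 0 were higher and 3 lower, none of them among the 4 pairs above, against 15.5% of 219 pairs. Without sham node 4, adjuvant node 1 or adjuvant node 2, the calls of TRBV14-TRBJ2-4 and TRBV14-TRBJ2-5 were lost and 2 remained, against 21.2%, 19.5% and 22.4% of pairs in that order. TRBV14-TRBJ2-4 was lost without sham node 3 or adjuvant node 4 as well (edgeR adjusted p 0.131 and 0.0611). TRBV14-TRBJ2-2 and TRBV14-TRBJ2-3 passed without any 1 of the 8 libraries, with a highest edgeR adjusted p of 0.00958 and 0.0281.

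TRBV14 CDR3s were shorter than those of the other segments. Weighted by reads, they averaged 11.8 ± 0.0580 residues over the 16 nodes, against 12.1 ± 0.0182 for the others (SD), and were shorter in 16 of 16 nodes by 0.278 residues on average (exact two-sided sign-flip p 3.05e-05, the smallest possible). With distinct CDR3s in place of reads the gap was -0.0895 residues, shorter in 14 of 16 nodes (exact sign-flip p 7.93e-04). Whether another TRBV segment set against the rest would differ in length as steadily was not tested. These p-values therefore do not show that a difference in length is particular to TRBV14. Among node groups, TRBV14 CDR3s averaged 11.87 residues in MI nodes and 11.89 in sham nodes (exact permutation p 0.657). They averaged 11.86 residues in antigen nodes (n = 5) and 11.78 in adjuvant nodes (n = 4), a difference of 0.0812 with an exact permutation p of 0.0397 that did not pass after adjustment over 3 measures (0.119). Sham nodes exceeded adjuvant nodes by 0.106 residues (exact permutation p 0.0857, adjusted 0.257).

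Their first residues set TRBV14 CDR3s apart as well. ASSF opened 29.1% ± 1.73 of TRBV14 reads over the 16 nodes and 1.31% ± 0.0900 of the reads of the other segments (SD). ASSL opened 19.4% ± 1.17 and 5.27% ± 0.675, and ASR 9.94% ± 1.00 and 4.70% ± 0.177. In hearts 1, 2 and 3, ASSF opened 37.6%, 29.3% and 43.9% of TRBV14 reads, the upper 2 of them above the node range of 24.0% to 31.5%. ASR opened 36.5% of TRBV14 reads in heart 1, through its clones of ranks 1 and 5, against 2.88% in heart 2 and 5.49% in heart 3. The first residues are largely encoded by the V segment itself, as background.

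The variety of TRBV14 CDR3s did not differ between node groups past the threshold. At equal depth, MI nodes listed 9255 ± 1335 distinct TRBV14 CDR3s (n = 3) and sham nodes 6579 ± 3363 (n = 4, exact permutation p 0.286, adjusted 0.429). Antigen nodes listed 4698 ± 1945 (n = 5) and adjuvant nodes 4621 ± 1607 (n = 4, exact permutation p 0.968). Sham nodes exceeded adjuvant nodes by 1958 (exact permutation p 0.343, adjusted 0.514). Sham nodes 3 and 4 moved these differences most. Without sham node 3 and without sham node 4, MI nodes exceeded sham nodes by 4084 and 1341 in place of 2675, and sham nodes exceeded adjuvant nodes by 549 and 3293, and none of these passed after adjustment. The share of TRBV14 reads in its 10 most abundant CDR3s was 2.71% ± 0.301 in MI nodes and 4.86% ± 2.49 in sham nodes (exact permutation p 0.229, adjusted 0.429), a difference of -2.15 points that was -1.22 without sham node 4. It was 4.22% ± 1.70 in antigen nodes and 4.73% ± 1.71 in adjuvant nodes (exact permutation p 0.683, adjusted 0.968), and 0.128 points higher in sham than in adjuvant nodes (exact permutation p 0.914). The smallest p that 3 against 4 libraries allow is 0.0286.

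The segments whose read shares ran most like that of TRBV14 over the 16 nodes were TRBV29 (Pearson r 0.45 on log2 shares), TRBV16 (0.43) and TRBV12-2 (0.39). Least like it was TRBV13-3, its neighbour in the RefSeq gene order (-0.67). Shares within a library sum to 100%, so that these correlations across libraries are given as a description alone.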

How the data were processed

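Per the labels' protocols, TRB transcripts of sorted CD4+ T cells were amplified by iRepertoire with arm-PCR and sequenced on an Illumina HiSeq. The deposited tables hold unnormalized whole-number counts of reads per CDR3, TRBV and TRBJ segment. The sources used here do not give the aligner, the error correction or the genome build. The segment and the gene lists were chosen with earlier results of these data known. All 33 segment names matched the RefSeq gene table.

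Counts were summed per TRBV segment (22) and per TRBV-TRBJ pair (241 with at least 20 reads in at least 2 node libraries). They were fitted over the 16 node libraries in 5 groups by edgeR's quasi-likelihood test (version 4.0.16, R 4.3.3), with library totals as offset and Benjamini-Hochberg adjustment over all features. A threshold of 0.05 was used, and DESeq2 1.42.0 was an alternative. TRBJ shares and CDR3 lengths of TRBV14 and the other segments were compared per library by exact sign-flip tests, and measures between groups by exact permutation tests, all two-sided and adjusted by Benjamini-Hochberg, after drawing reads to equal depth for numbers of CDR3s and for the share of the 10 most abundant. The code was tested on simulated data. Other alternatives were TMM factors, removal of entries under 10 reads or of segments under 0.1%, distinct CDR3s, a replicate block and leaving out each library.

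Named were the 5 leading TRBV14 entries of each heart and any shared by hearts, the leading one of each node, the most widely shared node CDR3s, TRBJ pairs past the threshold (up to 6, otherwise the 3 with the smallest p), the 3 segments most like TRBV14, and TRBV19 and TRBV5 for comparison. The rule's part on CDR3s in all 16 nodes found 0, so the 4 listed in 13 nodes were named instead after their values had been seen, as were TRBV13-2 and TRBV13-3.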

Additional observations from a re-analysis of the deposited data

Results flagged for a closer look

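Within TRBV14 reads, 3 TRBJ shares of single nodes stood far from the other 3 nodes of their group. TRBJ1-2 held 3.52% of TRBV14 reads in adjuvant node 1, against 2.91% to 2.93% in the other adjuvant nodes. TRBJ2-2 held 3.90% in adjuvant node 2, against 3.26% to 3.37% in the others. TRBJ2-7 held 11.3% in sham node 1, against 13.5% to 13.9% in the other sham nodes. In all, 36 groups of 4 values were examined, and chance gives such a flag in about 1 of 20 groups.

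The MI effect and the antigen effect were also compared for TRBV14 and its 11 TRBJ pairs. By edgeR 0 of 12 differences passed, 1 had an unadjusted p under 0.05, and the lowest adjusted p was 0.289, for TRBV14-TRBJ2-3. Shares over all 22 segments and 241 pairs are not given for this comparison, so that these counts stand without a background.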

How the results depend on the processing

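TRBV14 reads in MI against sham nodes, and in myosin against adjuvant nodes, kept their direction and stayed short of the threshold under every alternative run (log2 fold changes -0.17 to -0.03 and -0.10 to -0.01). For both antigens against adjuvant nodes, where the value was 0.02, the sign turned under TMM factors (-0.0041) and with distinct CDR3s (-0.0882), and the values without 1 library ran from -0.0342 to 0.0583. Distinct CDR3s also turned the sign for heart extract against adjuvant nodes (-0.11) and for sham against adjuvant nodes (-0.28, past the threshold), and for these control nodes turned TRBV14-TRBJ2-3 (-0.29), TRBV14-TRBJ2-5 (-0.12) and TRBV14-TRBJ2-4 (-0.12). They turned TRBV14-TRBJ2-3 between antigen and adjuvant nodes (-0.0103), and the excess of TRBJ1-1 (0.107 points) and TRBJ2-3 (-0.102 points) within TRBV14. The 4 TRBV14-TRBJ calls between sham and adjuvant nodes became 2 under TMM factors and 2 to 5 without 1 library. Hearts whose most abundant entry carries TRBV14 numbered 3 by reads and 0 on the scale chosen after the data were seen, whose divisor is largest for TRBV14. Without the most abundant CDR3 of each library, hearts exceeded MI nodes in TRBV14 reads by 0.327 points in place of 3.03, a drop that the choice of the segment by those heart entries fixes. The value ran from 1.28 to 4.98 without 1 library. Without 1 library, mean TRBV14 CDR3 length in MI minus sham nodes ran from -0.0335 to 0.00422 residues, distinct TRBV14 CDR3s in antigen minus adjuvant nodes from -545.2 to 741.5, in MI minus sham nodes from 1341 to 4084 and in sham minus adjuvant nodes from 549 to 3293, and the share of the 10 most abundant from -1.20 to 0.0995 points in antigen minus adjuvant nodes, from -3.19 to -1.22 in MI minus sham nodes and from -0.800 to 1.17 in sham minus adjuvant nodes. For the other changes the cause was not tested.

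The check made does not settle whether sample numbers pair the libraries, since each group holds only 2 to 4 of them. Over the 241 TRBV-TRBJ pairs, same-numbered MI and sham nodes deviated from their group means with correlations of -0.20, 0.42 and 0.39. MI nodes 2 and 3 correlated best with the sham node of their own number, and MI node 1 with sham node 2. Same-numbered hearts and MI nodes gave 0.0226, 0.0544 and -0.00156. With the number as a replicate block, TRBV14 in MI against sham nodes was -0.09 (edgeR adjusted p 0.840) and the calls of its TRBJ pairs between sham and adjuvant nodes stayed at 4. The block changed no other call of TRBV14 reads.

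Node reads bound a difference in TRBV14 use more by the spread between libraries than by counting. In hearts 3 or 4 clones decide most TRBV14 values.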
